A study of Mus musculus with 17 samples.

Results

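The 38 genes described here encode the acid hydrolases of the lysosome, the proteins that assist them, proteins of the lysosomal membrane, a calcium channel of that membrane and a transcription factor of lysosomal genes. They were chosen by symbol, and a symbol was matched to the first field of each row of the deposited tables. All 38 were found among the 25124 genes of each of the 3 tables. Values were high enough for a test of 38 of them in each comparison of tumour-bearing with tumour-free mice and of 37 in the comparison of genotypes, where *Ctsk* was too low.

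Kupffer cells (KCs) are the resident macrophages of the liver sinusoids and take up particles, dying cells and tumour cells. Their phagosomes fuse with lysosomes, where a proton pump keeps the lumen acidic and cathepsins, glycosidases, sulfatases, nucleases and lipid hydrolases take the cargo apart, so that sugars, amino acids, cholesterol and other lipids can leave through carriers in the membrane. TFEB, which mTORC1 holds in the cytosol at the lysosomal surface, turns on many of these genes when it enters the nucleus.

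RNA of KCs sorted from mouse liver was amplified as cDNA and sequenced in 17 samples. TIM4+CD206+ KCs were taken from untreated mice without tumour (3 samples) and from mice given tumour cells into the portal vein 2 weeks earlier (3 samples), and TIM4+CD206 hi KCs from the same kinds of mice (3 and 3 samples). A separate set held KCs of untreated mice without tumour, 3 samples of *Id3* f/f mice and 2 of *Clec4f* cre*Id3* f/f littermates, in which both genotypes carry the floxed *Id3* allele. Its Cre is driven by *Clec4f*, a gene of KCs, so that the deletion is limited to these cells and sets in around birth or later. The labels give no strain, age or sex of the mice, and no name of the tumour line.

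The deposited values are log2 values with the features of a regularised log transformation of read counts, made separately for each table. The step that made them is not stated. The linear values used below undo the log2 and are not exact read counts. Differences between groups are given on this log2 scale, where those of genes with few reads may be understated. Read depth is not in the files, and the linear values of a sample add up to between 21800000 and 39700000. A gene was called when its limma p, adjusted over all genes tested in the table, was under 0.05, and groups did not overlap when every sample of one lay above every sample of the other. Where a gene is said to rise or fall in a number of samples, each of these lay above or below every sample of the other group. The compared groups came from different mice. In sorted bulk samples, fewer cells of a type and less RNA per cell cannot be told apart.

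The labels were compared with genes that mark them. *Id3* itself had values of 12.59, 12.46 and 12.82 without the Cre and of 9.83 and 9.82 with it, and fell by 2.80 on the log2 scale (adjusted p = 1.4e-06, lower in 2 of 2 samples). *Clec4f*, whose locus carries the Cre, had a log2 fold change of −1.52 in the same comparison. The keratins *Krt8* and *Krt19*, which mark the epithelial tumour cells, rose with the tumour, in the TIM4+CD206+ subset by 3.85 and 5.25 and in the TIM4+CD206 hi subset by 4.83 and 5.36. *Xist*, which is transcribed from the inactive X chromosome of females, was 6.38, 6.33 and 6.36 in *Id3* f/f but 9.84 and 9.76 once the Cre was present, higher by 3.44. The Y-linked genes *Ddx3y*, *Eif2s3y*, *Uty* and *Kdm5d* had log2 fold changes of −2.44, −1.82, −1.08 and −0.36. Genotype and sex can therefore not be told apart in this comparison, and of the lysosomal genes *Gla* and *Lamp2* lie on the X chromosome.

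Levels of different genes were compared per length, as ppm of the sum of the linear values divided by the length of the merged exons. *Ctsd*, which encodes the aspartic protease cathepsin D, had the highest level of the 38 genes in TIM4+CD206+ KCs, with 10280 ± 324.6 ppm in tumour-free samples and 12820 ± 294 in tumour-bearing samples (mean ± SD, n = 3 each). It held rank 13 of 17417 genes in that table and rank 12 of 18946 genes in the TIM4+CD206 hi table. In the table of the genotypes *Ctss*, for the cysteine protease cathepsin S, was the highest of the 38 at rank 13 of 16372 genes, with 10310 ± 261.5 ppm in *Id3* f/f samples (n = 3) and 9551 ± 171.7 in *Clec4f* cre*Id3* f/f samples (n = 2). Next in the TIM4+CD206+ table came *Psap*, for the precursor of the saposins that lift lipids to their hydrolases, at rank 19, and *Ctsb*, for the cysteine protease cathepsin B, at rank 20. In tumour-free samples of that table their levels of 6732 ± 878.4 and 7124 ± 793.9 ppm lay within their spread. The lowest were *Ctsk*, for cathepsin K, a collagen-degrading protease best known from osteoclasts, at 1.08 ± 0.196 ppm and *Arsb*, for the sulfatase arylsulfatase B, at 2.64 ± 2.85 in tumour-free TIM4+CD206+ KCs. *Lamp1*, for a heavily glycosylated protein that lines the membrane, stood at 248.8 ± 122 ppm in tumour-free TIM4+CD206+ KCs, at 247.9 ± 70.8 in tumour-free TIM4+CD206 hi KCs and at 2176 ± 109.4 in *Id3* f/f KCs. The tables were normalised separately, and differences between them were not tested.

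Together the 38 genes made up between 4.96% and 7.17% of the linear sum of a sample. In TIM4+CD206+ KCs this part was 7.17%, 6.96% and 6.74% in tumour-free samples 1, 2 and 3 and 6.89%, 6.46% and 6.74% in tumour-bearing samples 1, 2 and 3. In the TIM4+CD206 hi subset it was 4.96%, 5.02% and 6.07% in tumour-free and 5.58%, 5.66% and 5.39% in tumour-bearing samples. It was 5.73%, 6.07% and 5.98% in *Id3* f/f samples and 5.47% and 5.28% in *Clec4f* cre*Id3* f/f samples. The conditions overlapped in both KC subsets, and both samples with the deletion lay below the 3 without it. *Ctsb* was the most abundant of the 38 in every sample on this scale.

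To see how the digestive equipment of KCs differs once a tumour has grown in the liver, tumour-bearing and tumour-free samples were compared within each subset. In TIM4+CD206+ KCs 1 of the 38 genes was called, *Ctsk*, which was higher, beside 3.54% of the 13233 genes tested (2.55% higher and 0.998% lower). None was called lower by limma, and 8 had an unadjusted p under 0.05, beside 17.2% of all genes, with 3 on the higher side, beside 9.33%, and 5 on the lower side, beside 7.84%. The median log2 fold change of the 38 was −0.081 against 0.017 for all genes tested, and 14 of the 38 lay above 0, beside 52.1% of all genes. For 14 of the 38 genes the groups did not overlap, beside 23.4% of all genes. In 5 of these the tumour-bearing samples lay higher (*Ctsd*, *Ctsk*, *Ctsz*, *Gla* and *Gusb*), beside 12.9% of all genes, and in 9 lower (*Cd68*, *Ctsa*, *Ctsb*, *Ctsc*, *Glb1*, *Man2b1*, *Lipa*, *Ppt1* and *Grn*), beside 10.5%. With quantile normalisation the median of the 38 was 0.019, so that its sign rests on the scaling. With a block for the replicate number *Man2b1* was called lower besides and 1026 genes were called in all. Without tumour-free sample 2, *Man2b1* and *Glb1* were called lower beside *Ctsk* and 1032 genes were called in all, against 469 with it, 3.27% of the genes tested higher and 4.56% lower. Leaving out another sample gave 231 to 265 calls over all genes, and without tumour-free sample 1, tumour-bearing sample 2 or tumour-bearing sample 3 none of the 38 was called.

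With tumour, 0 of the 38 genes were called by limma in either direction in TIM4+CD206 hi KCs, beside 7.23% of the 14561 genes tested (5.21% higher and 2.03% lower). At an unadjusted p under 0.05 stood 6 of the 38, beside 21.1% of all genes, 4 of them higher (*Ctsz*, *Npc1*, *Psap* and *Arsb*), beside 12.5%, and 2 lower (*Lamp2* and *Smpd1*), beside 8.57%. For 10 of the 38 the groups did not overlap, beside 30.7% of all genes, with 6 higher in tumour-bearing samples, beside 15.6%, and 4 lower, beside 15.2%. The median log2 fold change was 0.059 for the 38 and 0.028 for all genes tested, and 21 of the 38 lay above 0, beside 52.3% of all genes. Scaling moved the median of all genes, to −0.132 with the median of each sample set equal and to −0.107 with quantile normalisation, and with equal medians that of the 38 became −0.101. Over all genes 758 calls were higher and 295 lower, and 664 and 518 with quantile normalisation. Tumour-free sample 2 decided the count: without it 6 of the 38 were called higher (*Arsb*, *Ctsz*, *Gusb*, *Mcoln1*, *Naglu* and *Tfeb*) and *Ctsl* was called lower, and 3633 genes were called in all, 17.7% of the genes tested higher and 7.38% lower. Without another sample none of the 38 was called, and all calls numbered 444 to 1268.

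In both subsets the tumour-bearing samples lay above the tumour-free ones without overlap for *Ctsz* and *Gusb*, 5.26% of the 38 against 5.27% of the 13110 genes tested in both. They lay below for *Man2b1* and *Ppt1*, 5.26% against 3.97%. The sign of the log2 fold change was the same in both subsets for 27 of the 38 genes (71.1%, against 61.6% of the genes tested in both). The labels do not say whether both subsets came from the same mice, so that the subsets may not be independent of each other. Whether the response differs between the subsets was not tested, since their tables were normalised separately.

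KCs of the genotypes were compared without tumour, where genotype and sex cannot be told apart. In what follows, with and without *Id3* name the genotypes. Without *Id3*, 6 of the 37 lysosomal genes tested were called, beside 6.44% of the 12833 genes tested, all 6 of them lower, beside 3.37%, and 0 higher by limma, beside 3.08%. An unadjusted p under 0.05 was reached by 17 of the 37, beside 23.6% of all genes, with 6 higher, beside 11.9%, and 11 lower, beside 11.7%. The 6 called were *Cd68*, *Ctsb*, *Ctsd*, *Ctss*, *Gla* and *Npc2*. Groups did not overlap for 21 of the 37, beside 41.9% of all genes, with 7 higher, beside 20.2%, and 14 lower, beside 21.7%. The median log2 fold change of the 37 was −0.05 against 0.001 for all genes, and −0.006 with quantile normalisation, and 14 of the 37 lay above 0, beside 50.4% of all genes. As ppm per length 27 of the 37 were higher without *Id3*, beside 87.3% of all genes with a length, and the median log2 ratio on that scale was 0.15 for the 37 and 0.20 for all. Over all genes 395 calls were higher and 432 lower, and 328 and 550 with the medians of the samples set equal. The calls needed both *Clec4f* cre*Id3* f/f samples: without sample 1 of them 0 of the 37 genes and 17 of all genes were called, and without sample 2 these counts were 0 and 19, with the lone sample assumed to vary like the *Id3* f/f samples. Without *Id3* f/f sample 3, on the other hand, 15 of the 37 were called, 11 lower, beside 7.64% of all genes, and 4 higher, beside 6.78%, and 1850 genes in all. Without *Id3* f/f sample 1 the calls were 4 of the 37 and 207 in all, and without *Id3* f/f sample 2 they were 6, with *Gaa* higher in place of *Gla*, and 410 in all.

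**Figure D1:**
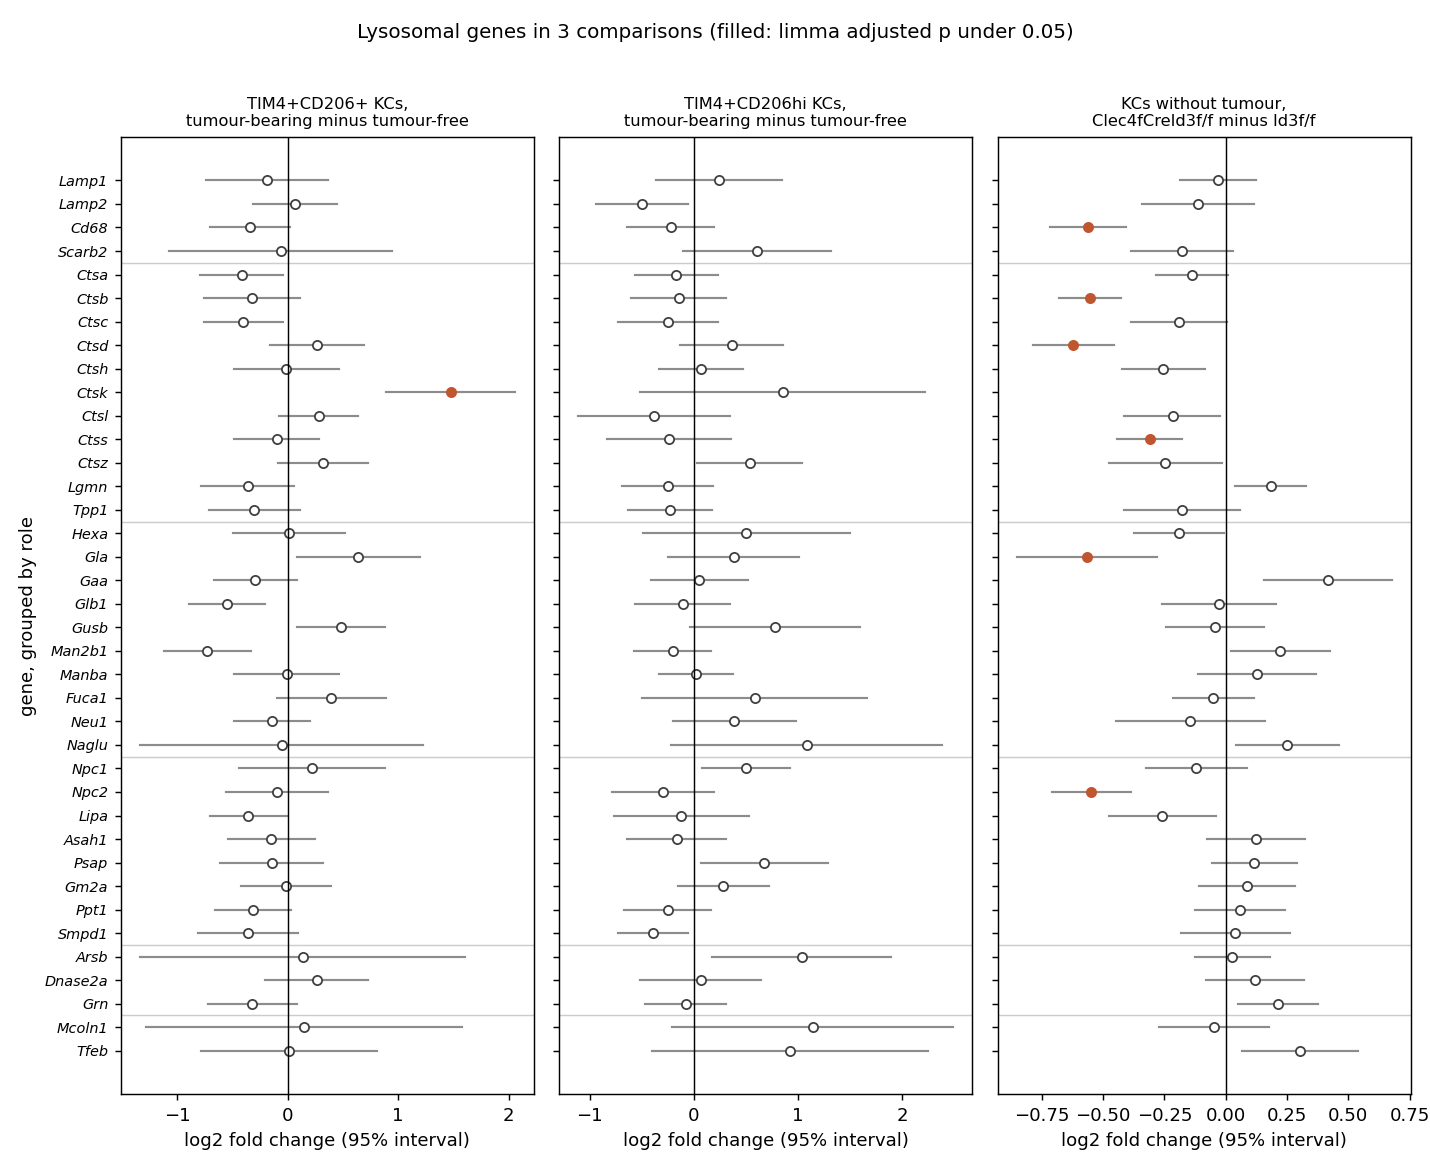
Log2 fold change of each of the 38 lysosomal genes, on the horizontal axis, with its 95% interval, for tumour-bearing minus tumour-free samples of TIM4+CD206+ KCs (left, n = 3 and 3) and TIM4+CD206hi KCs (middle, n = 3 and 3) and for Clec4fCreId3f/f minus Id3f/f KCs (right, n = 2 and 3); genes are grouped by role, and filled points are called. Called are *Ctsk* on the left, none in the middle and 6 genes on the right, all of them lower. On the right, genotype and sex cannot be told apart.

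Among the proteins of the lysosomal membrane, CD68 is a mucin-like protein of macrophage lysosomes, LAMP1 and LAMP2 line the membrane, and SCARB2 (LIMP2) carries the enzyme β-glucocerebrosidase to the lysosome. *Cd68* had values of 16.46, 16.21 and 16.28 in tumour-free and of 16.01, 15.86 and 16.07 in tumour-bearing TIM4+CD206+ KCs. All 3 tumour-bearing samples were lower, by a log2 difference of −0.34 that was not called (adjusted p = 0.317). The TIM4+CD206 hi tumour-free values were 15.19, 15.47 and 15.68 and the tumour-bearing ones 15.22, 15.18 and 15.27, so that the groups overlapped. In the comparison of genotypes *Cd68* was 15.47, 15.46 and 15.52 with *Id3* and 14.97 and 14.88 without it. It fell in 2 of 2 samples, by a log2 fold change of −0.56 (SE 0.070, adjusted p = 0.00351), and the difference was several times the spread within the groups. Without *Clec4f* cre*Id3* f/f sample 1 or 2 it was −0.61 or −0.52 and not called. *Lamp1*, the highest of the 4 on the deposited scale there, was 15.81, 15.89 and 15.86 with *Id3* and 15.88 and 15.77 without it. Its groups overlapped, and the 95% interval of the difference ran from −0.19 to 0.12, while on the ppm scale, on which most genes were higher without *Id3*, *Lamp1* was at 2176 ± 109.4 with and 2446 ± 130.7 without *Id3*, with no overlap. *Scarb2* in TIM4+CD206 hi KCs was 13.05, 13.39 and 12.19 in tumour-free and 13.61, 13.47 and 13.38 in tumour-bearing samples. Tumour-free sample 3 stood apart on the low side while sample 2 overlapped with the tumour-bearing group, and the log2 difference of 0.61 was not called. The 4 genes had log2 differences from −0.34 to 0.066 in TIM4+CD206+ KCs, from −0.50 to 0.61 in TIM4+CD206 hi KCs and from −0.56 to −0.031 between genotypes.

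Of the proteases, 11 genes, the cathepsins B, C, H, K, L, S and Z are cysteine proteases, cathepsin A a serine carboxypeptidase that also protects β-galactosidase and neuraminidase, legumain (*Lgmn*) an asparaginyl endopeptidase that matures cathepsins, and TPP1 a tripeptidyl peptidase. *Ctsk* had values of 4.49, 4.48 and 4.94 in tumour-free and of 5.78, 6.51 and 6.03 in tumour-bearing TIM4+CD206+ KCs. It rose in 3 of 3 samples, by a log2 fold change of 1.47 (SE 0.254, 95% interval 0.89 to 2.06, adjusted p = 0.0188), from a level close to the filter. The 3 tumour-bearing samples lay well above the 3 tumour-free ones, whose highest was sample 3. Without tumour-free sample 1, tumour-bearing sample 2 or tumour-bearing sample 3 its log2 fold change was 1.40, 1.27 or 1.51 and it was not called, and a filter at a mean of 50 counts left it out. *Ctsk* in TIM4+CD206 hi KCs was 6.27, 7.17 and 7.75 in tumour-free and 7.01, 9.05 and 7.70 in tumour-bearing samples. The groups overlapped, with tumour-bearing sample 2 far above the others, and the log2 difference of 0.85 was not called and was 0.29 without that sample. In the table of the genotypes the gene stayed between 3.24 and 3.32 and was not tested.

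*Ctsb* was 19.55, 19.26 and 19.19 in tumour-free and 19.05, 18.94 and 19.04 in tumour-bearing TIM4+CD206+ KCs. The groups did not overlap, but the log2 difference of −0.32 was not called (adjusted p = 0.451) and vanished with quantile normalisation. Its values in TIM4+CD206 hi KCs were 18.71, 18.88 and 19.12 in tumour-free and 18.79, 18.75 and 18.73 in tumour-bearing samples, which overlapped. Between genotypes it was 18.51, 18.60 and 18.54 with *Id3* and 18.03 and 17.96 without. Both samples without *Id3* lay below the other 3, and *Ctsb* fell by 0.55 on the log2 scale (SE 0.057, adjusted p = 0.00151). *Ctsd* was 17.09, 17.13 and 16.94 with *Id3* and 16.47 and 16.40 without. It fell in 2 of 2 samples by 0.62 (SE 0.073, adjusted p = 0.00295), the largest difference of the 37 genes tested. *Ctss* was 17.14, 17.09 and 17.14 with *Id3* and 16.83 and 16.79 without. It fell in 2 of 2 samples by 0.31 (SE 0.060, adjusted p = 0.0192), the smallest difference of the 6 called. With quantile normalisation *Ctsb* and *Ctss* were at −0.13 and −0.070 and not called, and with GC and length trends removed *Ctss* was at −0.14 and not called. Without *Clec4f* cre*Id3* f/f sample 1 the log2 fold changes of *Ctsb*, *Ctsd* and *Ctss* were −0.59, −0.66 and −0.33, without sample 2 they were −0.52, −0.58 and −0.29, and none was called. *Ctss* was also not called without *Id3* f/f sample 1, at −0.30. The other proteases between genotypes had log2 differences from −0.25 (*Ctsh*) to 0.18 (*Lgmn*). *Lgmn* was called higher at 0.44 with quantile normalisation, at 0.25 with GC and length trends removed and at 0.16 without *Id3* f/f sample 3, and *Ctsh* was called lower in the last 2 of these settings, at −0.29 and −0.21. *Ctsz*, at −0.25 with all samples, was called lower at −0.35 without *Id3* f/f sample 3.

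In the tumour comparison *Ctsd* was 18.65, 18.27 and 18.59 in tumour-free and 18.77, 18.78 and 18.75 in tumour-bearing TIM4+CD206+ KCs. All 3 tumour-bearing samples were higher, tumour-free sample 2 was the lowest, and the log2 difference of 0.27 was not called, while quantile normalisation gave 0.51 and a call. *Ctsz*, the cathepsin with a carboxypeptidase activity, was higher in all tumour-bearing samples of both subsets, with log2 differences of 0.32 and 0.54 that were not called. *Ctsz* was called in TIM4+CD206 hi KCs without tumour-free sample 2, at 0.70, and *Ctsl*, whose log2 difference was −0.38, was then called at −0.72. The 11 protease genes ranged from −0.42 (*Ctsa*) to 1.47 in TIM4+CD206+ KCs and from −0.38 to 0.85 in TIM4+CD206 hi KCs.

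The 10 glycosidases trim the sugars of glycoproteins, glycolipids, glycogen and glycosaminoglycans. *Man2b1*, for the lysosomal α-mannosidase, was 16.56, 16.34 and 16.11 in tumour-free and 15.74, 15.54 and 15.56 in tumour-bearing TIM4+CD206+ KCs. The groups did not overlap, and the log2 difference of −0.73 (SE 0.173) had an adjusted p of 0.0641, just above the threshold. Blocking on the replicate number, taken as a pairing from the data in this subset, left it at −0.73 and gave a call, and it was called without tumour-free sample 2 at −0.72 and with quantile normalisation at −0.63. Its adjusted p ranged from 0.0266 to 0.237 over the alternatives. *Man2b1* in TIM4+CD206 hi KCs was 15.80, 15.79 and 15.75 in tumour-free and 15.75, 15.44 and 15.54 in tumour-bearing samples. The tumour-bearing samples were lower, sample 1 by the smallest margin, and the difference of −0.20 was not called. Between genotypes *Man2b1* was 13.79, 13.83 and 14.02 with *Id3* and 14.14 and 14.07 without. Both samples without *Id3* were higher, by a difference of 0.22 that was not called and was called at 0.29 without *Id3* f/f sample 3.

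*Gla*, for the α-galactosidase that cleaves globotriaosylceramide, was 10.00, 10.07 and 9.67 in *Id3* f/f samples and 9.28 and 9.42 in *Clec4f* cre*Id3* f/f samples. It fell in 2 of 2 samples by 0.57 on the log2 scale (SE 0.128, adjusted p = 0.0331), with *Id3* f/f sample 3 nearest to the samples without *Id3*. *Gla* lies on the X chromosome, and sex cannot be told apart from genotype here. The call was lost with no filter and with no mean-variance trend. It was also lost when a sample other than *Id3* f/f sample 3 was left out: at −0.52 without *Id3* f/f sample 1, −0.49 without *Id3* f/f sample 2, −0.50 without *Clec4f* cre*Id3* f/f sample 1 and −0.64 without *Clec4f* cre*Id3* f/f sample 2. Without *Id3* f/f sample 3 the log2 fold change was −0.69 and the call was kept. In tumour-bearing TIM4+CD206+ KCs *Gla* lay above all tumour-free samples with a log2 difference of 0.64 that was not called.

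*Naglu*, for the α-N-acetylglucosaminidase of heparan sulfate, was 10.01, 11.89 and 9.57 in tumour-free and 11.56, 11.42 and 11.74 in tumour-bearing TIM4+CD206 hi KCs. Tumour-free sample 2 was higher than every tumour-bearing sample and the other tumour-free samples were lower, so that the log2 difference of 1.08 was not called (adjusted p = 0.31). Without tumour-free sample 2 it was 1.78 and called. *Gusb*, for β-glucuronidase, was likewise called without that sample, at 1.10 in place of 0.78. The glycosidases ranged from −0.73 to 0.64 in TIM4+CD206+ KCs, from −0.20 to 1.08 in TIM4+CD206 hi KCs and from −0.57 to 0.42 (*Gaa*, the acid α-glucosidase of glycogen) between genotypes.

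The lipid group joins LIPA, the acid lipase that frees cholesterol and fatty acids from lipoprotein lipids, the ceramidase ASAH1, the sphingomyelinase SMPD1, the thioesterase PPT1, the activators PSAP and GM2A, and NPC2 and NPC1, which pass cholesterol from the lumen to the membrane and out of it. *Lipa* was 14.46, 14.52 and 14.71 in tumour-free and 14.33, 14.09 and 14.19 in tumour-bearing TIM4+CD206+ KCs. All 3 tumour-bearing samples were lower, and the log2 difference of −0.36 was not called. *Psap* was 18.22, 17.75 and 18.35 in tumour-free and 17.999, 17.93 and 17.96 in tumour-bearing TIM4+CD206+ KCs. Tumour-free sample 2 was the lowest of the 6 and the groups overlapped, with a difference of −0.14 that became 0.052 with quantile normalisation. The other subset, TIM4+CD206 hi, had *Psap* at 17.29, 16.39 and 17.11 in tumour-free and 17.59, 17.70 and 17.54 in tumour-bearing samples. The tumour-bearing samples were higher and tumour-free sample 2 was again the lowest, and the difference of 0.68 was not called (adjusted p = 0.197), while quantile normalisation gave 0.92 and a call. Between genotypes *Psap* was 16.00, 16.19 and 15.99 with *Id3* and 16.20 and 16.15 without. These groups overlapped, and the difference of 0.12 was not called, while quantile normalisation gave 0.23 and a call.

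*Npc2* was 14.31, 14.25 and 14.27 in *Id3* f/f samples and 13.73 and 13.72 in *Clec4f* cre*Id3* f/f samples. It fell in 2 of 2 samples by 0.55 on the log2 scale (SE 0.072, adjusted p = 0.00478), and samples of a genotype lay close together. Without *Clec4f* cre*Id3* f/f sample 1 or 2 the log2 fold change was −0.55 in either case and the gene was not called. *Npc1*, its partner in the membrane, had a log2 difference of −0.12 in the same comparison and was not called. Tumour-bearing TIM4+CD206 hi samples all had higher *Npc1*, by 0.50, and lower *Smpd1*, by 0.40, and neither was called. The 8 genes ranged from −0.36 to 0.22 in TIM4+CD206+ KCs, from −0.40 to 0.68 in TIM4+CD206 hi KCs and from −0.55 to 0.12 between genotypes.

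**Figure D2:**
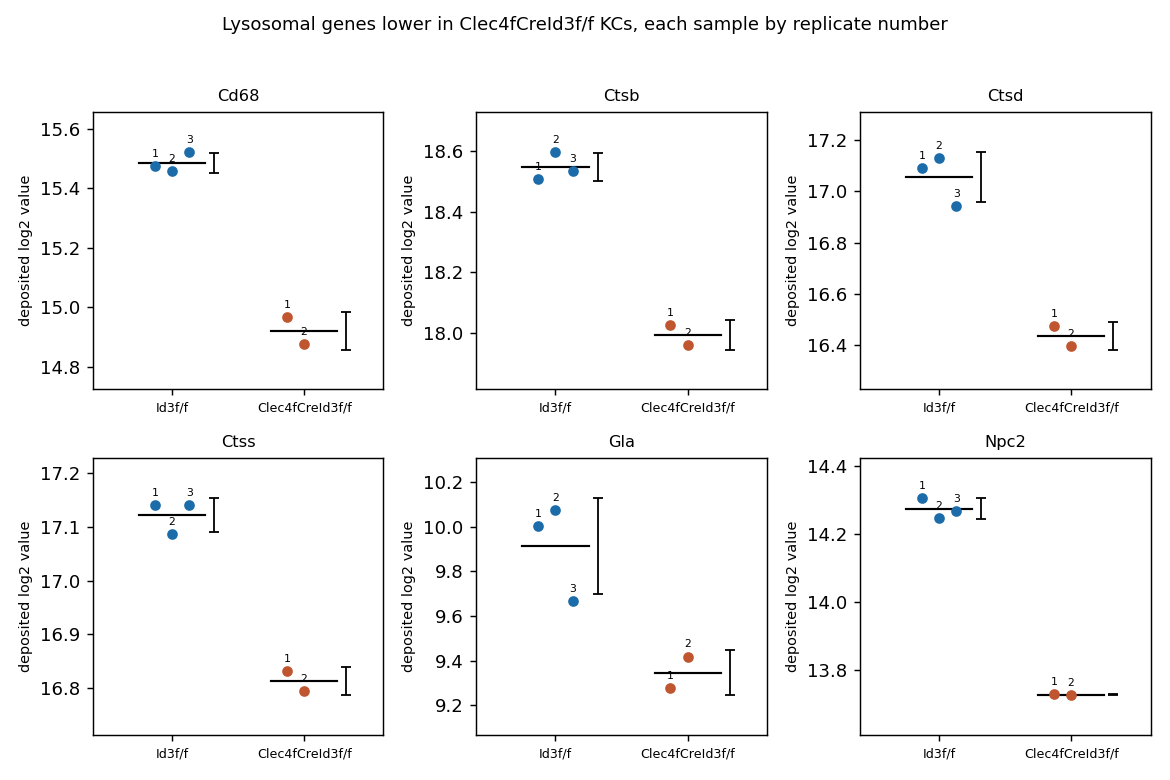
Deposited log2 value, on the vertical axis, of the 6 lysosomal genes called lower in Clec4fCreId3f/f KCs (n = 2) than in Id3f/f KCs (n = 3); points are samples with their replicate number, lines are group means and the bars beside them ± 1 SD. For each gene both samples without *Id3* lie below all 3 samples with it, from *Ctsd* with a log2 fold change of −0.62 to *Ctss* with −0.31. Genotype and sex cannot be told apart here.

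*Grn* encodes progranulin, which is cut in the lysosome to granulins and binds prosaposin and cathepsin D, *Dnase2a* the acid nuclease that digests the DNA of engulfed cells, and arylsulfatase B takes sulfate from dermatan and chondroitin sulfate. *Grn* was 17.72, 17.38 and 17.36 in tumour-free and 17.22, 17.05 and 17.24 in tumour-bearing TIM4+CD206+ KCs. The tumour-bearing samples were lower without overlap, and the log2 difference of −0.32 was not called and became 0.037 with quantile normalisation. *Grn* in TIM4+CD206 hi KCs was 16.65, 16.67 and 16.91 in tumour-free and 16.72, 16.59 and 16.67 in tumour-bearing samples, which overlapped. Between genotypes *Grn* was 15.74, 15.90 and 15.80 with *Id3* and 16.07 and 15.98 without. Both samples without *Id3* were higher, and the difference of 0.21 was not called, but was called at 0.21 without *Id3* f/f sample 3. *Arsb* was 8.16, 9.50 and 8.23 in tumour-free and 9.61, 9.63 and 9.74 in tumour-bearing TIM4+CD206 hi KCs. Tumour-free sample 2 came close to the tumour-bearing samples, the other tumour-free samples lay far below, and the difference of 1.03 (adjusted p = 0.165) was not called, but was called at 1.47 without that sample. *Dnase2a* had log2 differences of 0.26, 0.065 and 0.12 in TIM4+CD206+ KCs, in TIM4+CD206 hi KCs and between genotypes, and was not called.

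*Mcoln1* encodes TRPML1, the channel that lets calcium out of the lysosome and so helps to release TFEB from mTORC1. It was 8.16, 10.49 and 8.45 in tumour-free and 8.58, 10.08 and 8.89 in tumour-bearing TIM4+CD206+ KCs. Sample 2 of both conditions was high and the groups overlapped, with a difference of 0.15. *Mcoln1* in TIM4+CD206 hi KCs was 9.39, 11.08 and 8.59 in tumour-free and 10.85, 10.62 and 11.01 in tumour-bearing samples. Tumour-free sample 2 lay above all tumour-bearing samples and the other tumour-free samples lay below them, and the difference of 1.14 (adjusted p = 0.304) was not called, but was called at 1.84 without tumour-free sample 2. Between genotypes *Mcoln1* was 10.24, 10.38 and 10.45 with *Id3* and 10.24 and 10.38 without, and the groups overlapped. *Tfeb* was 10.17, 11.34 and 10.69 in tumour-free and 10.35, 11.33 and 10.56 in tumour-bearing TIM4+CD206+ KCs. Sample 2 of both conditions was again the highest, and the difference of 0.014 was −0.057 with equal medians. *Tfeb* in TIM4+CD206 hi KCs was 9.74, 11.01 and 8.49 in tumour-free and 10.74, 10.63 and 10.64 in tumour-bearing samples. The 3 tumour-bearing samples stood within the wide range of the tumour-free ones, and the difference of 0.92 was not called, but was called at 1.56 without tumour-free sample 2. Between genotypes *Tfeb* was 10.23, 10.24 and 10.03 with *Id3* and 10.38 and 10.56 without. Both samples without *Id3* were higher, by a difference of 0.30 that was not called (adjusted p = 0.119).

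In TIM4+CD206+ KCs the samples of both conditions differed most in the same few genes. The SD within a group exceeded 0.5 for 6 of the 38 genes in the tumour-free samples (*Scarb2*, *Naglu*, *Npc1*, *Arsb*, *Mcoln1* and *Tfeb*) and for 5 in the tumour-bearing ones, the same without *Npc1*. Sample 2 was the highest of its group for *Scarb2*, *Naglu*, *Arsb*, *Mcoln1* and *Tfeb* in both conditions of this subset. For *Arsb* the values were 6.18, 8.92 and 6.95 in tumour-free and 7.16, 8.09 and 7.20 in tumour-bearing samples, and for *Naglu* they were 9.85, 11.86 and 10.15 and then 9.96, 11.46 and 10.27. The sign of the small differences of these 5 genes turned when 1 sample was left out, as for *Naglu* from −0.056 to 0.57 without tumour-free sample 2. In TIM4+CD206 hi KCs the SD exceeded 0.5 for 11 genes in tumour-free samples and for 1, *Ctsk*, in tumour-bearing samples. In the comparison of genotypes it did so for none, and the highest SD was 0.26, of *Neu1* in *Id3* f/f samples. The labels name no batch, and the part of sample processing in this spread was not tested.

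**Figure D3:**
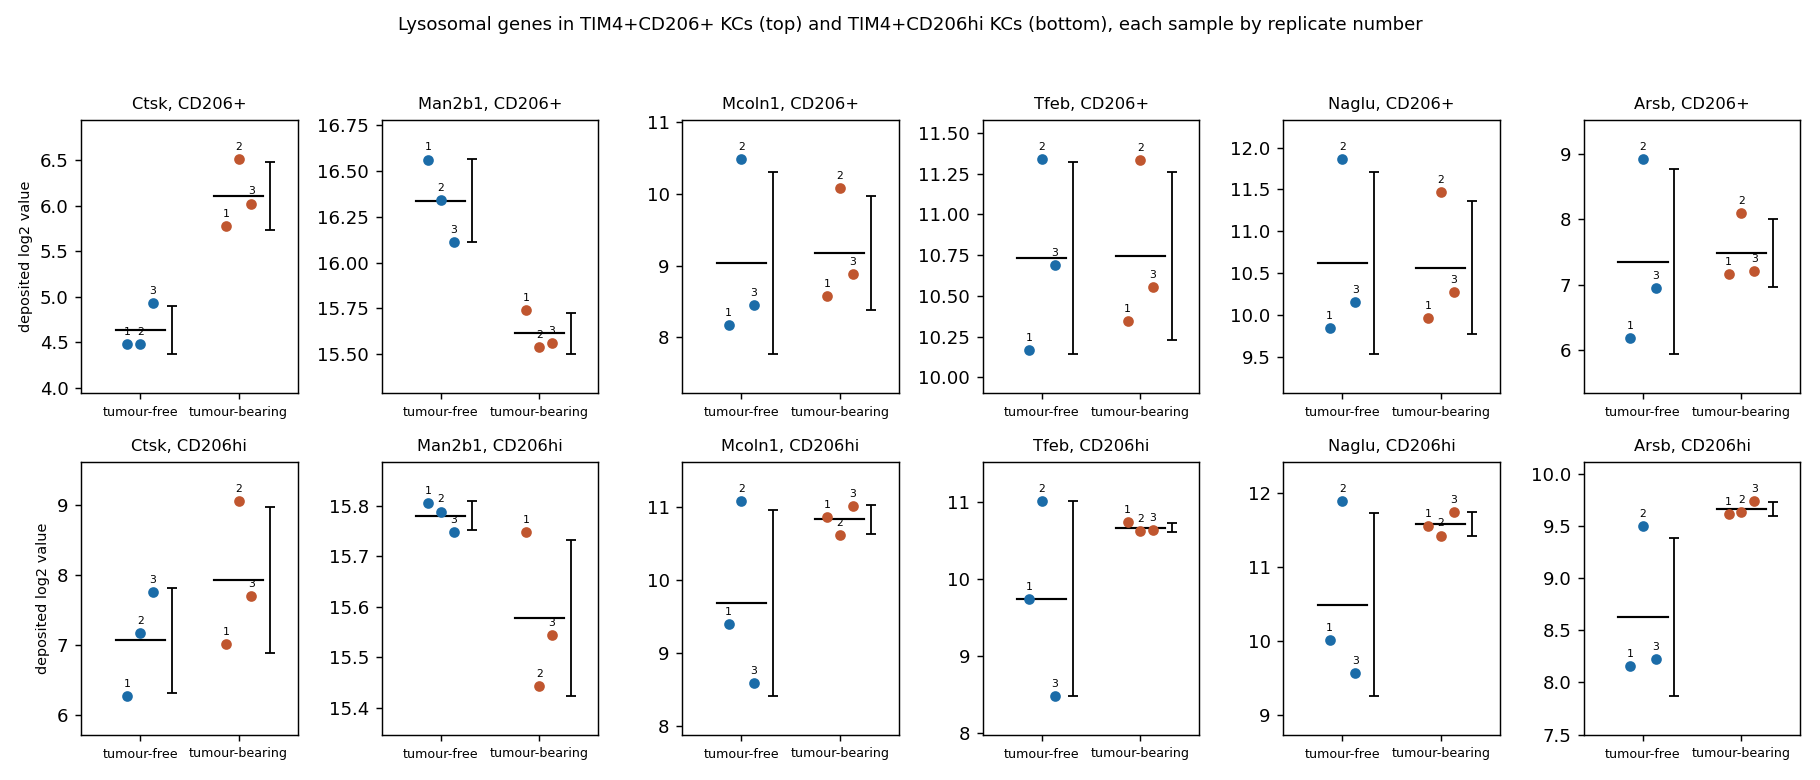
Deposited log2 value, on the vertical axis, of *Ctsk*, *Man2b1*, *Mcoln1*, *Tfeb*, *Naglu* and *Arsb* in tumour-free and tumour-bearing samples (n = 3 each) of TIM4+CD206+ KCs (top) and TIM4+CD206hi KCs (bottom); points are samples with their replicate number, lines are group means and the bars beside them ± 1 SD. In *Mcoln1*, *Tfeb*, *Naglu* and *Arsb* sample 2 of both conditions is high in TIM4+CD206+ KCs, and sample 2 is the highest of the tumour-free samples in TIM4+CD206hi KCs.

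Promoter windows from RefSeq (GRCm38.p6, 250 bases before to 50 after a start) were found for 34 of the 38 genes and searched on both strands for 4 motifs. The 10-base palindrome of the CLEAR element, which TFEB binds, was in 0 of the 34 and in 0.37% of the 27025 genes with a window. Its 6-base core CACGTG was in 10 of the 34 (29.4%) and in 8.09% of all genes. These were *Ctsa*, *Ctsd*, *Ctsl*, *Gaa*, *Gla*, *Glb1*, *Lamp1*, *Lgmn*, *Mcoln1* and *Naglu*. CAGCTG and CAGGTG, letters that the E proteins bound by ID3 can read, were in 10 of the 34 (29.4%, all genes 18.3%) and in 7 of the 34 (20.6%, all genes 22.6%). Windows were found for 5 of the 6 genes called lower without *Id3*, of which *Ctsd* and *Gla* held CACGTG, *Cd68*, *Ctsd* and *Ctss* held CAGCTG, and none held CAGGTG. A match describes letters in the window, and binding was not measured. The stretches below show, with the motif in capitals, the CAGCTG of the genes called lower without *Id3* and a CACGTG of *Ctsd*, *Gla* and *Mcoln1*; those of *Ctss* and *Mcoln1* are on the plus strand and the others on the minus strand.
*Cd68*, chr11:69666299-69666324: ccgtgtgagtCAGCTGcctcattctc
*Ctss*, chr3:95526730-95526755: agggcggaggCAGCTGttctcataag
*Ctsd*, chr7:142387878-142387903: acaagcgggtCAGCTGactccgcggg
*Ctsd*, chr7:142387910-142387935: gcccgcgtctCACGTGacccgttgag
*Gla*, chrX:134601184-134601209: agatctcggtCACGTGagcaactctc
*Mcoln1*, chr8:3500464-3500489: gcgccccgctCACGTGaccgcggcgc

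*Lamp1* held 4 copies of CACGTG within its window, more than any other of the 34 genes. They lie on the plus strand close together just before the start, as in the stretch chr8:13159106-13159131 with the sequence gtccagcgccCACGTGatgccgactg. By position, *Ctsk* and *Ctss* are neighbours on chromosome 3, at chr3:95499256-95509362 and chr3:95526786-95556403. Exons of *Ctsb* overlap those of *Fdft1* on the other strand, and those of *Glb1* overlap *Tmppe* on the same strand. Exons of *Lamp1*, *Ctsa*, *Ctsz*, *Hexa*, *Ppt1*, *Dnase2a* and *Grn* overlap other genes on the other strand as well, and reads of any of these may be shared.

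Other genes of the lysosome and of the path to it, 171 in 7 lists, were counted by the same test. In TIM4+CD206+ KCs 5 of 163 tested were called higher, beside 2.55% of all genes, and 2 lower, beside 0.998%, and their median log2 fold change was −0.020 against 0.017 for all genes. The 5 higher were *Ctse* (2.77), for an aspartic protease of endosomes, the membrane proteins *Cd63* (2.79) and *Gpnmb* (3.23), *Atp6v0d2* (2.25), for a subunit of the proton pump, and *Spint1* (3.64), which was listed with the inhibitors but encodes an inhibitor of serine proteases at the surface of epithelial cells. *Cd63* was 9.98, 9.30 and 10.53 in tumour-free and 12.87, 12.66 and 12.65 in tumour-bearing samples, and all tumour-bearing samples were higher. The 2 lower were the acid phosphatase *Acp2* (−0.75) and the tethering factor *Vps39* (−0.84). *Acp2* and *Vps39* lost their calls without any sample other than tumour-free sample 2, with log2 fold changes of −0.81 to −0.63 and of −0.92 to −0.74 over the samples left out. *Acp2* and *Vps39* were not called with equal medians either. *Spint1* lost its call in 4 of these cases, with tumour-free samples 1 and 3 and tumour-bearing samples 1 and 2 left out, at 2.99 to 4.19.

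In TIM4+CD206 hi KCs 6 of 163 were called higher, beside 5.21% of all genes, and 0 lower by limma, beside 2.03% (5 with an unadjusted p under 0.05 were lower), with a median of 0.014 against 0.028 for all genes. These were *Ctse* (3.90), *Cd63* (1.63), *Gpnmb* (3.66), *Atp6v0d2* (3.00), *Sorl1* (1.32), for a sorting receptor, and *Spint1* (4.50). The differences of *Spint1* are of the size of the median of the epithelial tumour cell markers, 4.01 in TIM4+CD206+ and 5.18 in TIM4+CD206 hi KCs. Those of *Ctse* lie within the range of these markers, 1.43 to 5.72 in TIM4+CD206+ and 3.72 to 6.21 in TIM4+CD206 hi KCs. *Cd63*, *Gpnmb* and *Atp6v0d2* lie within it in TIM4+CD206+ KCs and below it in TIM4+CD206 hi KCs. The cells that express these genes were not determined. *Atp6v0d2* was 6.30, 7.38 and 8.07 in tumour-free and 9.38, 11.19 and 10.18 in tumour-bearing samples, and all tumour-bearing samples were higher. *Ctse*, *Cd63* and *Spint1* kept their calls without each sample in turn. *Gpnmb*, *Atp6v0d2* and *Sorl1* lost theirs without tumour-bearing sample 2 and without tumour-bearing sample 3, with values of 2.97 to 4.30, 2.52 to 3.43 and 1.16 to 1.43 over the samples left out. *Gpnmb* also lost its call without tumour-free sample 1 or 3 and with no filter or the stricter one, *Atp6v0d2* without tumour-free sample 1 and *Sorl1* without tumour-bearing sample 1.

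Between genotypes 6 of 161 were called higher, beside 3.08% of all genes, and 19 lower, beside 3.37%, with a median of −0.014 against 0.001 for all genes. The same shares of all genes apply to the counts of the single lists. Of the 18 proton pump genes 4 fell, *Atp6v0b* (−0.47), *Atp6v0e* (−0.31), *Atp6v1f* (−0.52) and *Atp6v1g1* (−0.45), and of 20 genes of the MiT/TFE factors and of mTORC1 at the lysosome 4 fell, the Ragulator subunits *Lamtor1* (−0.36), *Lamtor2* (−0.40), *Lamtor4* (−0.40) and *Lamtor5* (−0.39). *Atp6v1f* was 13.14, 12.93 and 12.96 with *Id3* and 12.44 and 12.54 without, and both samples without *Id3* were lower. Of 7 cathepsin inhibitor genes tested 2 fell, *Cst3* (−0.55) for cystatin C, which restrains cysteine cathepsins, and *Cstb* (−0.62) for cystatin B. *Cst3* was 15.38, 15.23 and 15.28 with *Id3* and 14.71 and 14.79 without, and both samples without *Id3* were lower. Of 31 genes of phagosome maturation 2 rose, *Vps33a* (0.49) and *Ncf1* (0.47), and 5 fell, *Ncf4* (−0.52), *Rab20* (−0.52), *Vamp8* (−0.51), *Cyba* (−0.39) and *Vti1b* (−0.35). Of 44 other hydrolases and cofactors *Hyal2* (0.61) and *Pla2g15* (0.48) were among the genes that rose, and *Creg1* (−0.52) fell. Of 25 other membrane proteins *Sidt2* (0.47) rose and *Gpnmb* (−0.51) and *Laptm4a* (−0.28) fell, and of 16 genes of delivery *Gnptg* (−0.41) fell. All 25 calls were lost without *Clec4f* cre*Id3* f/f sample 1 and without sample 2, where 17 and 19 of all genes were called, while the log2 fold changes kept their direction and much of their size. Over the samples left out they were −0.54 to −0.41 for *Atp6v0b*, −0.39 to −0.33 for *Lamtor1* and −0.59 to −0.50 for *Cst3*. Without *Id3* f/f sample 1, 3 of the 25 kept their call, *Cst3*, *Hyal2* and *Ncf4*, and without *Id3* f/f sample 2, 13 did. With no filter 18 of the 25 were kept, with quantile normalisation 21 and with GC and length trends removed 17. The 4 Ragulator calls were all lost with no filter, and with GC and length trends removed *Lamtor2* (−0.28), *Lamtor4* (−0.29) and *Lamtor5* (−0.20) were not called. The most abundant genes of these lists over the samples of each table were *Lyz2* of the hydrolases, *Laptm5* of the membrane proteins, *M6pr* of delivery, *Lamtor1* of the mTORC1 list and *Cst3* of the inhibitors. *Atp6v0b* in the TIM4+CD206+ table and *Atp6ap1* in the other tables were the most abundant proton pump genes, and *Cybb* in the TIM4+CD206 hi table and *Cyba* in the other tables those of the phagosome.

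Markers of other cells moved in the same comparisons. Of epithelial tumour cell markers 15 of 15 tested rose in each subset. Their share of the linear sum was 0.0066%, 0.0060% and 0.0101% in tumour-free and 0.149%, 0.128% and 0.131% in tumour-bearing TIM4+CD206+ KCs, and 0.0071%, 0.0083% and 0.0062% and then 0.193%, 0.203% and 0.188% in TIM4+CD206 hi KCs, with *Krt8* the most abundant over the samples of each table, as are the genes said below to lead a list. Of monocyte and recruited macrophage markers 7 of 12 rose in each subset. Their share was 0.110%, 0.0574% and 0.0840% and then 0.252%, 0.242% and 0.233% in TIM4+CD206+ KCs, led by *Plac8*, and 0.0680%, 0.115% and 0.0846% and then 0.242%, 0.402% and 0.260% in TIM4+CD206 hi KCs, led by *Spp1*. The lead of *Spp1* rests on the tumour-bearing samples, where it held 0.0648%, 0.134% and 0.0746%. In the tumour-free samples it held 0.0054%, 0.0056% and 0.005%. In both lists every tumour-bearing sample lay above every tumour-free one. *Gpnmb* stands both among these markers and among the lysosomal membrane proteins above. Of neutrophil markers 5 of 13 rose in TIM4+CD206+ KCs, with shares of 0.0421%, 0.0358% and 0.0550% and then 0.118%, 0.116% and 0.112%, led by *S100a9*, and 5 of 12 in TIM4+CD206 hi KCs, with 0.0289%, 0.0242% and 0.0416% and then 0.0959%, 0.0895% and 0.0649%, led by *Csf3r*. Hepatocyte markers fell, 6 of 12 in TIM4+CD206+ KCs, from 0.0586%, 0.0581% and 0.0670% to 0.0216%, 0.0175% and 0.0253%, led by *Apoa1*, and 8 of 12 in TIM4+CD206 hi KCs, from 0.0716%, 0.0741% and 0.0887% to 0.0243%, 0.0201% and 0.0259%, led by *Alb*. None of these markers was at 0 in the tumour tables. Without 1 sample, 28 to 38 of the 38 marker calls were kept in TIM4+CD206+ KCs and 25 to 43 of 43 in TIM4+CD206 hi KCs, fewest without tumour-bearing sample 2. Their part in the results on the lysosomal genes was not tested.

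KC markers had 2 of 14 lower in TIM4+CD206+ KCs, *Adgre1* (−0.93) and *Timd4* (−0.75), with shares of 5.25%, 4.82% and 4.40% in tumour-free and 3.78%, 3.53% and 3.68% in tumour-bearing samples, led by *Clec4f*. All 3 tumour-bearing samples were lower. Both calls were lost without any sample other than tumour-free sample 2, at −1.03 to −0.81 for *Adgre1* and −0.82 to −0.66 for *Timd4* over the samples left out, and with equal medians or no mean-variance trend. In TIM4+CD206 hi KCs 0 of 14 were called by limma, where 4 had an unadjusted p under 0.05, and the shares of 2.91%, 2.93% and 3.86% and then 3.00%, 2.69% and 2.84% overlapped. Sinusoidal endothelial markers had 4 of 13 lower in TIM4+CD206 hi KCs, from 1.40%, 0.974% and 1.37% to 0.597%, 0.678% and 0.732%, led by *Clec4g*, and 0 of 13 called by limma in TIM4+CD206+ KCs, where 5 had an unadjusted p under 0.05 and the shares were 0.109%, 0.0591% and 0.0929% and then 0.0657%, 0.0623% and 0.0737%, led by *Stab2*. B cell markers had 3 of 5 and 2 of 6 lower, with *Cd79b* leading at 0.0121% to 0.0137% of tumour-free TIM4+CD206+ samples. Of T and NK cell, dendritic cell and stellate cell markers none was called by limma in TIM4+CD206+ KCs, where 2, 1 and 1 had an unadjusted p under 0.05, and 0 of 10, 0 of 7 and 2 of 8 were called in TIM4+CD206 hi KCs, where 5, 0 and 4 had an unadjusted p under 0.05 and the 2 called were lower.

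Between genotypes, 3 KC markers were called higher and 4 lower of 14, *Id3* and *Clec4f* among the latter, and the shares were 3.93%, 4.09% and 3.89% with *Id3* and 4.45% and 4.39% without, led by *Cd5l*. Of monocyte and recruited macrophage markers 4 of 11 fell, with shares of 0.0692%, 0.0631% and 0.0716% and then 0.0401% and 0.0434%, led by *Plac8*, while *Vcan* was at 0. Hepatocyte markers had 2 of 11 higher, with shares of 0.0981%, 0.0839% and 0.113% and then 0.114% and 0.134%, led by *Alb*, with *Hamp* at 0. Sinusoidal endothelial markers had 1 higher and 3 lower of 13, with overlapping shares of 0.0945%, 0.0997% and 0.126% and then 0.110% and 0.112%, led by *Mrc1*. *Mrc1* encodes CD206, the protein by which the KC subsets were separated, so that it does not set endothelial cells apart from KCs. It is one of the 13 in each comparison. Of neutrophil markers 1 of 9 was lower, *Mmp9*, and *Ly6g* was at 0. Of the epithelial markers, 7 of which were tested, *Krt20*, *Cldn4*, *Gkn1* and *Agr2* were at 0, and of these and of B cell, T and NK cell, stellate cell and dendritic cell markers none was called by limma, where 0, 0, 0, 0 and 2 had an unadjusted p under 0.05. Of the 18 marker calls 2 were kept without *Clec4f* cre*Id3* f/f sample 1, 4 without sample 2, and 8 and 10 without *Id3* f/f samples 1 and 2, while over the samples left out the log2 fold changes were −1.03 to −0.89 for *Plac8*, −0.99 to −0.89 for *Trem2* and 0.24 to 0.27 for *Cd5l*. The part of these cells in the lower values of the 6 lysosomal genes was not tested.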

How the data were processed

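RNA-seq values of 17 sorted KC samples were read from the 3 deposited tables. According to the submitters' processing notes, the authors aligned reads to mm10 with STAR 2.7.10a, counted them on genes with HTSeq and used DESeq2. File names speak of counts and column names of TPM, but the deposited values are log2 values with the features of a regularised log transformation, made for each table on its own by the authors. Read depth is not given, and precision is limited by the number of samples. The authors' own comparisons were not used.

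Genes with a deposited value of at least log2(10) in 3 samples (2 in the table of the genotypes) were tested two-sided with limma 3.58.1 (R 4.3.3). Filters given in counts mean the log2 of that number on the deposited scale. The variance prior followed the mean (trend), p values were adjusted over all genes tested by the Benjamini-Hochberg method, and a gene was called at an adjusted p under 0.05. Intervals are at 95%. The fit was run on simulated data in which genes and samples varied independently. A likeness between samples, as seen in the TIM4+CD206+ table, was not covered. Lists were described by counts and medians and were not tested as sets. Lengths and GC content came from GENCODE M21 (97.49% of genes), promoter windows from RefSeq. Python 3.11.15 with numpy 2.4.6, pandas 2.3.3 and matplotlib 3.10.9 served for tables and figures.

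The members and lists were chosen with earlier results of these data known. For each lysosomal gene called, the values of every sample are given in the comparison where it was called. In each role they are given likewise for the gene with the highest deposited value and the gene with the largest difference in that comparison. For some of these genes the values of other comparisons are given as well. Of the related lists, genes called are named, up to 5 per direction, besides the most abundant gene; not every called gene is named. Other names, such as those of counts, of neighbouring or overlapping genes and of sex-linked genes, and the plotted and printed examples were chosen after their values were seen.

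Alternatives were no filter, a stricter filter at a mean of 50 counts, no mean-variance trend, equal sample medians, quantile normalisation, a block for the replicate number, omission of each sample and, chosen after seeing the data, removal of GC and length trends (splines with 5 degrees of freedom) alone and with the block. In the TIM4+CD206+ table tumour-free and tumour-bearing samples of equal number were taken as pairs: across genes, which are not independent of each other, their differences from the mean of their group had r = 0.35, 0.56 and 0.15 for the 3 numbers. Samples 1 and 3 were also alike across numbers (r = 0.296 and 0.158), so that only number 2 stands apart. This pairing comes from the data and not from the labels.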

Additional observations from a re-analysis of the deposited data

How the results depend on the processing

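Over all alternatives, the log2 fold changes of the named lysosomal genes kept their direction and their side of the threshold in 206 of 237 values in TIM4+CD206+ KCs (3 lost and 5 gained a call), 228 of 238 in TIM4+CD206 hi KCs (0 and 5) and 167 of 208 between genotypes (20 and 11). For the related and marker genes called, 546 of 615, 591 of 671 and 382 of 546 values kept both, and in the others the call was lost with no change of direction. In TIM4+CD206+ KCs, equal medians turned *Tfeb* to −0.057. Quantile normalisation turned *Psap* to 0.052, *Grn* to 0.037 and *Npc2* to 0.093 and gave a median of 0.019 for the 38 genes. It called 2 of them higher and 1 lower, beside 2.26% and 1.31% of all genes. *Npc2* was 0.003 with GC and length trends removed, with and without the block. The block, whose numbers were taken as pairs here, called 1 lower, beside 3.09% of all genes, and 1026 genes in all. With the trends removed as well it called 1 lower, beside 3.34%, and 955 in all. Neither changed another call of the 38 genes than that of *Man2b1*. The stricter filter left 0 called higher, beside 2.24% of all genes, because *Ctsk* was not tested. In TIM4+CD206 hi KCs, quantile normalisation turned *Lipa* to 0.042 and *Grn* to 0.09 and called 1 higher, beside 4.56% of all genes. The stricter filter left 600 genes called in all there. The median of the 38 was −0.101 with equal medians and −0.161 with GC and length trends removed, with and without the block. Between genotypes, the block turned *Mcoln1* to 0.001. It called 3 of the 37 higher and 10 lower, beside 8.09% and 8.19% of all genes, and 2089 genes in all. Equal medians turned *Arsb* to −0.002, and GC and length trends removed turned it to −0.036 (−0.021 with the block) and *Lamp1* to 0.004 (0.011 with the block). That removal called 7 of the 37, 1 of them higher, beside 3.86% of all genes higher and 3.34% lower. It gave a median of −0.121. With the block the same removal called 3 higher and 12 lower, beside 9.05% and 7.7%, and 2150 in all. Quantile normalisation called 2 higher and 4 lower, beside 3.18% and 2.91% of all genes, and gave a median of −0.006. The stricter filter called 1 higher and 6 lower, beside 4.76% and 5.08%, and no filter left 477 calls in all. In TIM4+CD206 hi KCs and between genotypes the samples share only a number, with correlations of −0.048, −0.132 and −0.051 and of −0.073 and −0.1, so that the block is there a change of settings only; in TIM4+CD206 hi KCs it called 909 genes. With 1 sample left out, calls over all genes ranged from 231 to 1032 in TIM4+CD206+ KCs, 444 to 3633 in TIM4+CD206 hi KCs and 17 to 1850 between genotypes, lysosomal genes called higher from 0 to 1, 0 to 6 and 0 to 4, called lower from 0 to 2, 0 to 1 and 0 to 11, and their median from −0.202 to −0.016, −0.009 to 0.159 and −0.1 to −0.048. Directions that turned then ranged in TIM4+CD206+ KCs from −0.279 to 0.318 (*Tfeb*), −0.301 to 0.875 (*Mcoln1*), −0.451 to 0.918 (*Arsb*), −0.304 to 0.043 (*Npc2*), −0.506 to 0.565 (*Naglu*), −0.413 to 0.421 (*Scarb2*) and −0.353 to 0.098 (*Lamp1*), in TIM4+CD206 hi KCs from −0.324 to 0.194 (*Lipa*), −0.123 to 0.007 (*Grn*) and −0.384 to 0.028 (*Ctss*), and between genotypes from −0.119 to 0.025 (*Mcoln1*), −0.014 to 0.066 (*Arsb*) and −0.085 to 0.024 (*Lamp1*). Where a genotype was left with 1 sample, that sample was assumed to vary like the other group. The GC and length settings were chosen after seeing the data, and the cause of these changes was not tested. Without read counts, the precision that depth gives to *Ctsk* and other low genes is not known.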
